A study of Mus musculus with 4 samples.

Results

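The genes Slpi, Anxa3, Asb4, Skap2, Nupr1, Htra3, Pcolce2 and Neat1 were described in cells of the neonatal mouse tibia. They are 8 of the 31053 genes in the matrix, and they were chosen by their higher level in Col1a1-rich cells that derived from hypertrophic chondrocytes (HCs) than in other Col1a1-rich cells of the same library. That contrast is therefore given as a description, and no support is drawn from it. The data are single-cell RNA sequencing of 1 library, pooled from 2 tibiae of 1 male mouse at postnatal day 6 (P6), of genotype Col10a1Cre;Rosa26-Tdtomato;Irx3 +/Δ;Irx5 +/-. The mouse has 1 mutant copy of Irx5 in all cells. By the study's description, its Irx3 deletion is made in the HC lineage by the same Cre that switches on the reporter, so HC origin and the Irx3 deletion cannot be told apart in any comparison of reporter-marked with other cells. No wild-type sample is compared here. The 4 sequencing entries are parts of this 1 library and are not replicates, so differences between cells carry no statistical test.

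Endochondral bone forms on a cartilage template whose chondrocytes stop dividing, enlarge into HCs and prepare the matrix for invasion by vessels. Part of the HCs survive and become osteoblasts (Obs), which join Obs that arose from the perichondrium and the marrow stroma, and both kinds lay down collagen I, the product of Col1a1 and Col1a2. In this mouse Cre recombinase is driven by Col10a1, a gene of HCs, and switches on a tdTomato reporter that HCs pass on to their descendants. The reporter transcript carries the WPRE element near its 3′ end, where this chemistry reads, so WPRE counts stand in for tdTomato.

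Cells with at least 20 Col1a1 UMIs (unique molecular identifiers, each standing for 1 captured transcript) per 10000 UMIs were called Col1a1-rich. Of 8256 cells kept, 1184 met this minimum. Those with more than 14 WPRE UMIs were called HC-derived (191 cells) and those with 14 or fewer were called other (993 cells). tdTomato itself was detected in 40.3% of the HC-derived cells and in 0.906% of the other cells. The label is not complete, since 89 of 106 cells of the HC-like cluster passed the WPRE cutoff, and descendants of unlabelled HCs would stand among the other cells.

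The Col1a1-rich cells were not all osteoblasts, and the 2 groups differed in their makeup. Mature osteoblast-like cells made up 78.5% of the HC-derived cells and 28.9% of the other cells. Immature osteoblast-like cells made up 16.2% and 27.1%. Periosteal or tendon fibroblast-like cells were 28.5% of the other cells and 2 of the 191 HC-derived cells. The groups also differed in depth, with a median of 18292 UMIs per HC-derived cell and 12281 UMIs per other cell. For these reasons each gene is also given within the immature and the mature osteoblast-like class, where the median depths were 13316 against 11099 UMIs and 19001 against 18596 UMIs. Osteoblast genes still differed within a class, and not in the same direction. Bglap, which encodes osteocalcin, stood at 2777 UMIs per 1000000 UMIs (CPM) in HC-derived and 14476 CPM in other mature osteoblast-like cells, while Ibsp, which encodes bone sialoprotein, stood at 10180 and 5438 CPM. Ifitm5, a marker of mature osteoblasts, stood at 764 and 697 CPM. As whole lists, 9 mature osteoblast markers summed to 63388 CPM in HC-derived and 90378 CPM in other mature osteoblast-like cells. The sums of 6 osteocyte markers there were 569 and 776 CPM. In the immature class the same lists summed to 9999.6 against 9617 CPM and to 247 against 98.9 CPM. Whether maturity differed within a class was not tested.

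The genes have unlike functions. Slpi encodes a secreted inhibitor of serine proteases such as neutrophil elastase, Htra3 a secreted serine protease, and Pcolce2 a secreted enhancer of the trimming of procollagen ends. Anxa3 encodes an annexin, a protein that binds membranes in the presence of calcium. Skap2 encodes a cytoplasmic adaptor of Src family kinase signalling, and Asb4 a subunit that gives a cullin ubiquitin ligase its substrates. Nupr1 encodes a small nuclear protein induced by stress, and Neat1 is a long noncoding RNA that forms the scaffold of paraspeckles in the nucleus.

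In the annotation of GRCm38, the build of these counts, Slpi lies on the minus strand of chromosome 2 from 164354070 to 164389095. Htra3 (minus strand, 35652023 to 35679782) and Anxa3 (plus strand, 96793339 to 96845966) lie on chromosome 5. Asb4 (plus strand, 5383386 to 5433022) and Skap2 (minus strand, 51857422 to 52012549) lie on chromosome 6. Nupr1 lies on chromosome 7 (minus strand, 126623249 to 126630861), Pcolce2 on chromosome 9 (plus strand, 95637601 to 95698096) and Neat1 on chromosome 19 (minus strand, 5824708 to 5845478). Neat1 is annotated as a lincRNA and the other members as protein coding. Of the genes that overlap Pcolce2 on the opposite strand, 1 was in the matrix, Gm16126, with 1 UMI in the cells kept.

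Because the genes were higher in the same cells, the promoters were read for shared letters. RefSeq promoters on GRCm38.p6, each of 250 bases before and 50 bases after a start, were held for 6 of the 8 genes, with 7 starts. Both strands of each window were searched for 6 motifs. The E-box (CACGTG), held by 7.15% of 32851 promoters, was found in Slpi and Nupr1. The C/EBP-ATF composite (TGATGNAAT), held by 0.965%, was found in Nupr1 on the reverse strand, and it did not overlap the E-box. The RUNX core (TGTGGT), held by 16.8% of all promoters, was in none of the 7 windows. The AP-1 motif (TGANTCA, in 7.81%) was not in them either. Nor was the CRE (TGACGTCA, in 1.79%). The letters TATAAA, held by 13.6%, were also in none of the 7 windows. No motif was thus found in more than 2 of the 6 genes. The stretches around the matches are shown 5′ to 3′ on the gene's strand, at chr2:164356628-164356673 for Slpi and chr7:126625553-126625715 for Nupr1, with the matched letters in capitals. Both stretches lie inside the gene spans given above, which come from a different annotation. Only the RefSeq starts were searched. In Nupr1 the first match is the E-box and the second is the composite, a kind of site that ATF4 binds in other stress genes. A match is a match of letters and does not show binding.
Slpi: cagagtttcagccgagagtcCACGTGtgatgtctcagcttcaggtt
Nupr1: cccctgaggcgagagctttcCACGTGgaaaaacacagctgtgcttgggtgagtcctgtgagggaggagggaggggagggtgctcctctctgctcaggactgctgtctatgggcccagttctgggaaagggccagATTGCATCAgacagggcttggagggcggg

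Over all Col1a1-rich cells, 7 of the 8 genes were at least 1.5-fold higher in the HC-derived cells, and the median log2 ratio of the 8 was 1.18. Of 8161 genes that reached 10 CPM in 1 group or both, 4.15% were at least 1.5-fold higher and 15.5% at least 1.5-fold lower, with a median log2 ratio of -0.11. Since this contrast chose the genes, nothing is read from the count. The genes ranked between place 8 (Slpi) and place 399 (Pcolce2) among those 8161 genes, so the list holds genes from the top of the contrast and 1 gene below the 1.5-fold line. Intervals in the text are 95% intervals and cover counting error only.

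**Figure D1:**
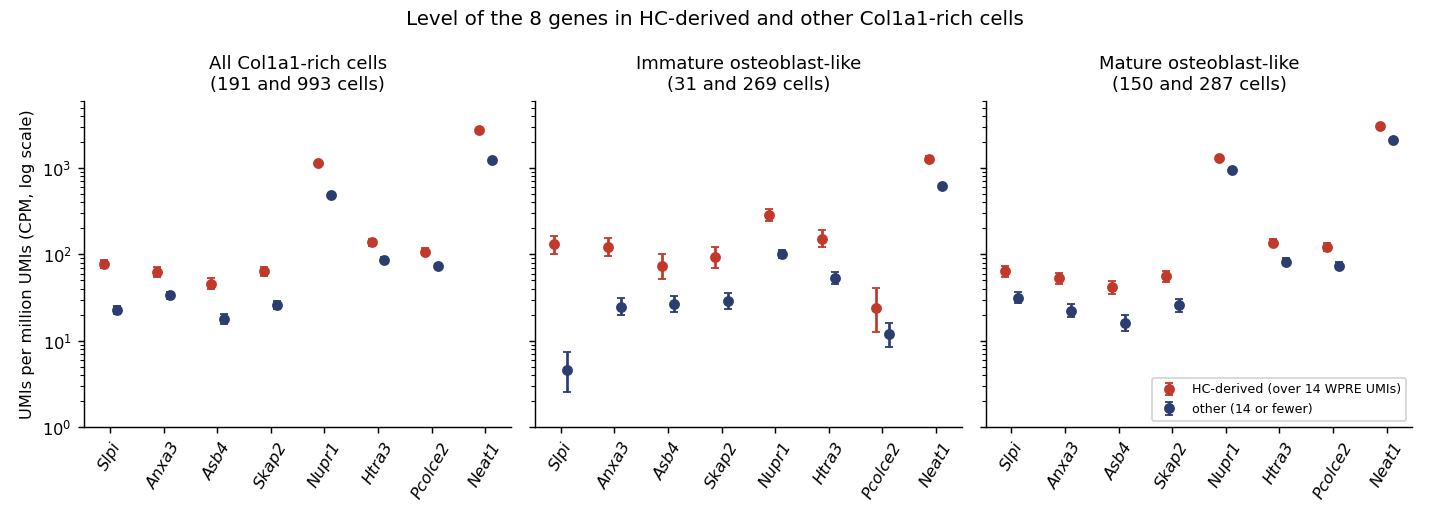
Level of each gene (CPM, log axis) in HC-derived cells (red) and other cells (blue), for all Col1a1-rich cells, immature osteoblast-like and mature osteoblast-like cells. Points are summed UMIs per 1000000 with exact Poisson 95% intervals, and each gene lies higher in the HC-derived cells in all 3 panels, with the widest gap for Slpi in the immature cells, 131 against 4.55 CPM.

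Among the genes of secreted proteins, Slpi had the highest ratio. It stood at 77.4 CPM (95% interval 69.1 to 86.3, 318 UMIs) in the HC-derived and 23.0 CPM (20.5 to 25.6, 326 UMIs) in the other cells, a log2 ratio of 1.71 (1.49 to 1.93). Slpi was unevenly spread over the cells. The median cell of both groups held none, the highest HC-derived cell held 40 UMIs, and 5 cells held 36.8% of the HC-derived UMIs. After every cell was thinned to 5000 UMIs, 19.9% of HC-derived and 4.81% of other cells had a Slpi UMI, against 0.766% of erythroid-like cells, a class that should lack it (unthinned shares 38.7%, 10.2% and 2.90%, at median depths of 18292, 12281 and 14040 UMIs).

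Htra3 was more evenly spread, at 138 CPM (127 to 150) against 87.1 CPM (82.3 to 92.1), a log2 ratio of 0.65 (0.51 to 0.80). The median HC-derived cell held 111 CPM and the median other cell 23.7 CPM, and thinned shares were 49.7% and 29.05%. Pcolce2 was the gene with the smallest ratio. It stood at 107 CPM (97.5 to 118) against 73.4 CPM (69.0 to 78.0), a log2 ratio of 0.54 (0.38 to 0.70), and its thinned shares were 35.6% and 13.7%. The thinned shares of Htra3 and Pcolce2 in erythroid-like cells were 0.766% and 2.91%. For Pcolce2 the share differed more than the summed level, and a single other cell held 48 of the 1042 UMIs of its group.

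Among the genes of adaptors and membrane proteins, Asb4 stood at 45.7 CPM (39.4 to 52.8) against 17.9 CPM (15.8 to 20.2), a log2 ratio of 1.31 (1.04 to 1.57). Skap2 stood at 63.5 CPM (56.0 to 71.7) against 26.1 CPM (23.5 to 28.9), a log2 ratio of 1.25 (1.03 to 1.47). Anxa3 stood at 62.5 CPM (55.1 to 70.6) against 33.7 CPM (30.7 to 36.8), a log2 ratio of 0.87 (0.66 to 1.09). All 3 are low genes, seen after thinning in 19.9%, 25.1% and 25.1% of the HC-derived cells and in 6.17%, 9.82% and 10.9% of the other cells, in the order Asb4, Skap2 and Anxa3. In erythroid-like cells the thinned shares were 0.153%, 5.36% and 1.68%, so of the 3 genes Skap2 lay closest to its share there. That class joins 2 clusters, at 20.9 and 6.12 CPM of Skap2, so its Skap2 share is not taken as a background.

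The genes of nuclear products were the most abundant of the list. Nupr1 stood at 1140 CPM (1108 to 1174) against 490 CPM (478 to 502), a log2 ratio of 1.22 (1.16 to 1.27). The median HC-derived cell held 719 CPM and the median other cell 156 CPM, with highest cells at 9239 and 10931 CPM, so the ranges of single cells overlapped throughout. Neat1 stood at 2734 CPM (2684 to 2785) against 1236 CPM (1218 to 1255), a log2 ratio of 1.14 (1.11 to 1.18), with median cells at 2145 and 550 CPM. Neat1 was found in 97.9% of the HC-derived and 88.6% of the other cells before thinning, and in 95.8% and 82.0% after it. Erythroid-like cells also carried Neat1 widely, with a thinned share of 66.3%, and Nupr1 with one of 6.13%, against 87.4% and 57.8% for Nupr1 in the Col1a1-rich groups.

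Few cells lay near the WPRE cutoff. Of the Col1a1-rich cells, 645 had 0 WPRE UMIs, 321 had 1 to 4, 27 had 5 to 14, 93 had 15 to 29, 82 had 30 to 59 and 16 had 60 or more. Slpi and Skap2 had similar levels in the 3 ranges above the cutoff, at 70.7, 76.2 and 98.4 CPM for Slpi and at 62.6, 61.5 and 72.2 CPM for Skap2. Slpi stood at 26.4, 18.4 and 15.4 CPM in the 3 ranges below it. Nupr1 and Neat1 were higher in each successive range, from 358 to 1483 CPM for Nupr1 and from 1012 to 2980 CPM for Neat1. The last step of Neat1, from 2937 CPM (2860 to 3015) to 2980 CPM (2845 to 3120), lay within counting error. The share of mature osteoblast-like cells went from 20% at 0 WPRE UMIs to 81.3% at 60 or more, with median depths of 11145 and 41853 UMIs. The part of maturity and depth in this order was not tested.

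Just outside the cutoff, 14 cells with 10 to 14 WPRE UMIs held 19.6 CPM of Slpi, 68.6 CPM of Anxa3, 58.8 CPM of Asb4, 49.0 CPM of Skap2, 495 CPM of Nupr1, 108 CPM of Htra3, 132 CPM of Pcolce2 and 1866 CPM of Neat1. Just inside it, 26 cells with 15 to 19 WPRE UMIs held 47.8 CPM of Slpi, 69.4 CPM of Anxa3, 57.4 CPM of Asb4, 67.0 CPM of Skap2, 1239 CPM of Nupr1, 115 CPM of Htra3, 86.1 CPM of Pcolce2 and 2780 CPM of Neat1. The counting intervals of 6 genes overlapped between these neighbouring ranges, and those of Nupr1 and Neat1 did not. At the Col1a1 minimum, 12 cells above the WPRE cutoff with 20 to 25 Col1a1 UMIs per 10000 held 124 CPM of Slpi and 171 CPM of Anxa3, and 17 such cells with 15 to 20 held 82.0 and 111 CPM. At or below the WPRE cutoff, 75 cells with 20 to 25 held 4.91 CPM of Slpi (4 UMIs) and 62.7 CPM of Anxa3. There, 116 cells with 15 to 20 held 44.2 CPM of Slpi (53 UMIs) and 50.8 CPM of Anxa3. The gap in Slpi was thus much smaller just under the Col1a1 minimum than just over it.

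**Figure D2:**
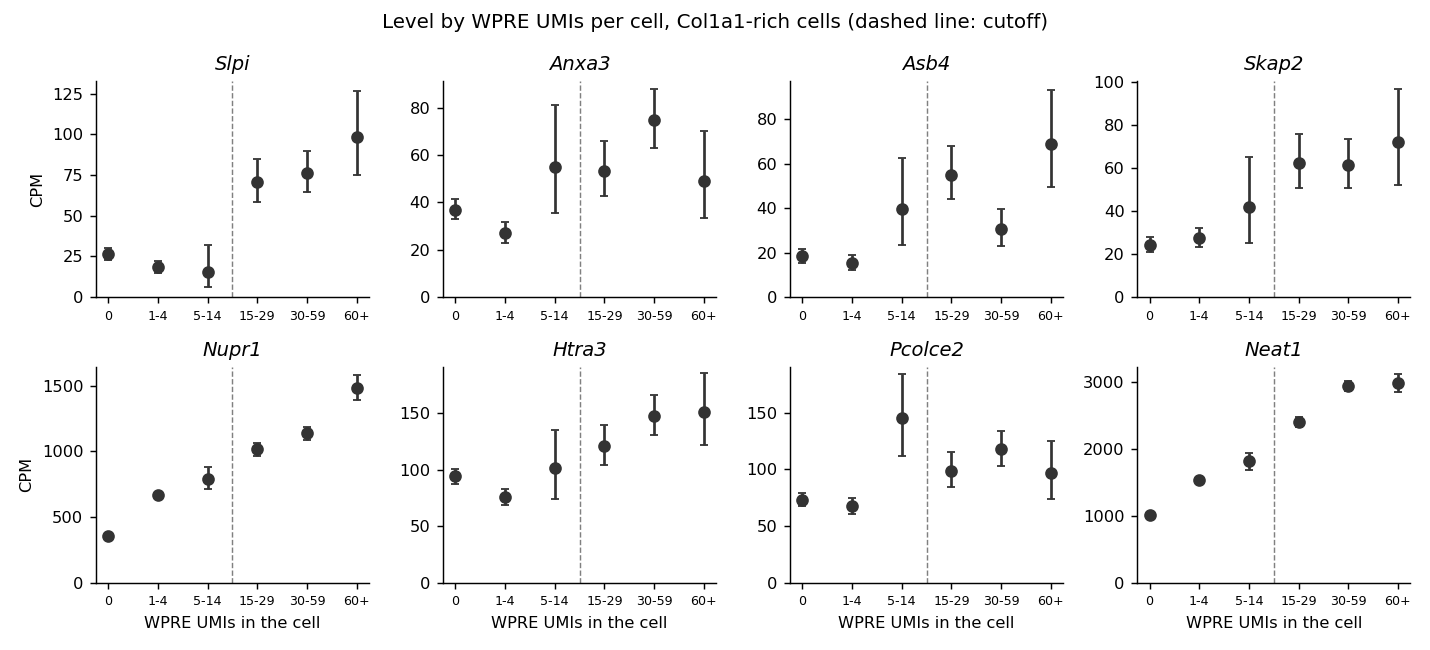
Level (CPM, axes from 0) of each gene in Col1a1-rich cells grouped by the number of WPRE UMIs in the cell, with exact Poisson 95% intervals and the cutoff as a dashed line. Slpi goes from 15.4 CPM (6.19 to 31.7, on 7 Slpi UMIs) at 5 to 14 WPRE UMIs to 70.7 CPM (58.3 to 85.0) at 15 to 29. In the finer ranges next to the cutoff, given in the text, its intervals overlap. Nupr1 climbs over the whole range and Neat1 climbs up to 30 to 59 UMIs. Pcolce2 is highest, at 145 CPM, in the 27 cells with 5 to 14 UMIs.

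Within the immature osteoblast-like class (31 HC-derived and 269 other Col1a1-rich cells), all 8 genes were at least 1.5-fold higher in the HC-derived cells, where 13.3% of 8662 genes were. These cells belong to the chosen contrast, so the count is a description. Anxa3 stood at 123 CPM (95.6 to 157) against 24.9 CPM (19.8 to 30.9), a log2 ratio of 2.26 (1.81 to 2.72). Skap2 stood at 93.9 against 29.1 CPM, Htra3 at 153 against 53.4 CPM and Asb4 at 73.6 against 26.7 CPM. Nupr1 stood at 285 against 102 CPM and Neat1 at 1268 against 616 CPM. Pcolce2 rested on 13 and 39 UMIs, at 23.9 CPM (12.7 to 40.9) against 11.8 CPM (8.41 to 16.2).

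Slpi in the immature class stood at 131 CPM (102 to 165) against 4.55 CPM (2.55 to 7.51), a log2 ratio of 4.57 (3.88 to 5.25). This value rested on few cells, since 1 cell held 40 of the 71 HC-derived UMIs (56.3%). Macrophage and neutrophil markers were also higher in the HC-derived immature cells, while 9 B lineage markers were lower, at 335 against 592 CPM. The macrophage list shares Vcam1 with the stromal progenitor list, so its sum need not be leukocyte RNA alone. Over the whole library Slpi stood at 184 CPM in other leukocyte-like and 105 CPM in neutrophil or its precursor-like cells. In macrophage or osteoclast-like cells it stood at 12.96 CPM. The part of leukocyte RNA in the Slpi ratio was not tested. The summed level of 7 macrophage markers was 353 CPM in HC-derived and 147 CPM in other immature cells, and that of 12 neutrophil markers was 617 and 396 CPM. When doublet calls, cells with a Ptprc UMI and cells with at least 20 UMIs per 10000 of these markers were left out, 26 and 253 cells remained, with Slpi at 41.1 against 4.36 CPM, a log2 ratio of 2.98 (2.05 to 3.90). Anxa3 then stood at 136 against 25.5 CPM and Skap2 at 87.1 against 27.5 CPM, so for both the result was about as large without these cells. Pcolce2 stood at 16.9 against 11.1 CPM without them, with a log2 ratio of 0.57 (-0.53 to 1.68).

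Within the mature osteoblast-like class (150 HC-derived and 287 other cells), 6 of the 8 genes were at least 1.5-fold higher in the HC-derived cells, where 4.73% of 7288 genes were. Asb4 had the highest ratio, 41.6 CPM (35.0 to 49.1) against 16.2 CPM (13.1 to 19.8), a log2 ratio of 1.31 (0.95 to 1.67). Anxa3 stood at 53.0 against 22.4 CPM, Skap2 at 56.0 against 25.7 CPM and Slpi at 63.5 against 31.7 CPM. Htra3 stood at 137 against 82.5 CPM and Pcolce2 at 122 against 74.1 CPM. Nupr1 and Neat1 were under the 1.5-fold line, at 1320 against 936 CPM (log2 ratio 0.49, 0.44 to 0.55) and at 3054 against 2109 CPM (0.53, 0.50 to 0.57).

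Doublet calls and leukocyte-marked cells bore on 1 gene of the mature class by more than 1.5 times. Without them (139 and 263 cells left), Pcolce2 stood at 123 against 40.1 CPM, a log2 ratio of 1.59 (1.35 to 1.84) in place of 0.71 (0.52 to 0.91). Slpi then stood at 65.1 against 23.0 CPM, a log2 ratio of 1.46 (1.14 to 1.78) in place of 0.98 (0.70 to 1.26). Of the 430 Pcolce2 UMIs of the other mature cells, 204 remained without them.

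The ratios of Slpi, Anxa3, Nupr1, Htra3 and Neat1 were higher in the immature than in the mature class by more than counting error. The difference in log2 ratio was 3.59 (2.85 to 4.33) for Slpi, 1.06 (0.50 to 1.61) for Anxa3, 0.98 (0.70 to 1.26) for Nupr1, 0.78 (0.36 to 1.19) for Htra3 and 0.51 (0.38 to 0.64) for Neat1. For Slpi it was 1.52 (0.54 to 2.49) without leukocyte-marked cells and doublet calls, and 2.60 (1.73 to 3.47) without the cell with most Slpi UMIs in each group. For Asb4 it was 0.12 (-0.52 to 0.76), for Pcolce2 0.24 (-0.64 to 1.13) and for Skap2 0.56 (-0.01 to 1.13), intervals that hold 0 and differences of up to about 1 on the log2 scale. For Pcolce2 the sign turned without leukocyte-marked cells and doublet calls, at -1.02 (-2.15 to 0.11), and without the top cells, at -0.29 (-1.34 to 0.77).

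The classes also differed in level, and not in the same way for all genes. From immature to mature HC-derived cells, Nupr1 was higher by a log2 ratio of 2.21 (1.98 to 2.44), Pcolce2 by 2.30 (1.54 to 3.07) and Neat1 by 1.27 (1.16 to 1.38). Anxa3 was lower, with a log2 ratio of -1.20 (-1.60 to -0.80), as were Asb4 at -0.81 (-1.31 to -0.31) and Skap2 at -0.74 (-1.18 to -0.29). Among the other cells Nupr1, Pcolce2 and Neat1 were also higher in the mature class, with log2 ratios of 3.18, 2.55 and 1.77, and Slpi was higher too, at 2.56 (1.93 to 3.19). In the HC-derived cells Slpi had no stable direction. It stood at 63.5 CPM in mature and 131 CPM in immature cells (log2 ratio -1.03, -1.41 to -0.65), at 57.6 and 59.6 CPM without the top cells (-0.05, -0.59 to 0.49), and at 65.1 and 41.1 CPM without leukocyte-marked cells and doublet calls (0.65, -0.05 to 1.35). Anxa3, Asb4 and Skap2 were at or below their immature level in mature cells of both groups.

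Cells under the Col1a1 minimum took no part in choosing the genes, although they come from the same mouse and library. Among immature osteoblast-like cells under the minimum (53 above and 116 at or below the WPRE cutoff), 6 of the 8 genes were at least 1.5-fold higher above the cutoff, where 9.79% of 8860 genes were. Asb4 stood at 68.1 CPM (51.0 to 89.1) against 16.3 CPM (10.3 to 24.4), a log2 ratio of 2.001 (1.33 to 2.68). Htra3 stood at 129 CPM (105 to 156) against 37.5 CPM (28.1 to 49.1) and Anxa3 at 103 CPM (81.5 to 128) against 30.4 CPM (22.0 to 41.0). Skap2 stood at 72.0 against 31.1 CPM, Nupr1 at 143 against 63.7 CPM and Slpi at 42.4 against 10.6 CPM (24.9 against 9.31 CPM without the top cell of each group). Neat1 was nearly level, at 766 against 728 CPM (log2 ratio 0.07, -0.07 to 0.22), and Pcolce2 rested on 8 and 13 UMIs, at 10.3 against 9.20 CPM.

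In stromal progenitor-like cells under the minimum, marrow stromal cells that carry little Col1a1 (50 above and 173 at or below the cutoff), 6 of the 8 genes were again at least 1.5-fold higher above the cutoff, where 8.75% of 8733 genes were. The ratio was highest for Asb4, at 80.3 CPM (59.4 to 106) against 13.5 CPM (8.76 to 19.99), a log2 ratio of 2.48 (1.82 to 3.14). Anxa3 stood at 128 CPM (101 to 160) against 39.0 CPM (30.5 to 49.1), Htra3 at 143 CPM (114 to 176) against 46.6 CPM (37.3 to 57.5) and Skap2 at 55.7 CPM (38.6 to 77.9) against 25.5 CPM (18.7 to 33.8). Neat1 stood at 803 against 495 CPM, and Pcolce2 rested on 8 and 9 UMIs. Nupr1 did not differ beyond counting error, at 129 against 125 CPM (log2 ratio 0.06, -0.31 to 0.42), and Slpi stood at 11.5 against 14.1 CPM (-0.27, -1.39 to 0.84). S100a8, 1 of the neutrophil markers, stood at 57.4 CPM above and 1203 CPM at or below the cutoff. The part of neutrophil RNA in the ratios of this set was not tested. Without doublet calls and leukocyte-marked cells, Anxa3 stood at 124 against 33.2 CPM and Skap2 at 56.5 against 24.4 CPM.

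Anxa3, Asb4, Skap2 and Htra3 thus had counting intervals of the log2 ratio above 0 in both sets of cells under the Col1a1 minimum. Slpi, Nupr1, Pcolce2 and Neat1 did not. The 2 osteoblast-like sets over the minimum belong to the contrast that chose the genes, so nothing is read from them. The share of all genes with such intervals in both sets was not computed, so this is a description. In the HC-like cluster, where 86 cells lay above and 16 at or below the cutoff, Nupr1, Pcolce2 and Neat1 were lower above the cutoff, with log2 ratios of -0.30 (-0.41 to -0.18), -0.66 (-0.88 to -0.44) and -0.41 (-0.61 to -0.22). Slpi stood at 293 CPM above and 400.1 CPM at or below the cutoff, but 1 of the 16 cells held 69 of the 139 Slpi UMIs, and without the top cell of each group the levels were 248 and 219 CPM (log2 ratio 0.18, -0.18 to 0.53). Anxa3 was higher above the cutoff, at 238 against 173 CPM (0.46, 0.08 to 0.84). Htra3 was higher there, at 71.5 CPM (62.4 to 81.6) against 14.4 CPM (4.67 to 33.6), with 5 UMIs behind the lower value.

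**Figure D3:**
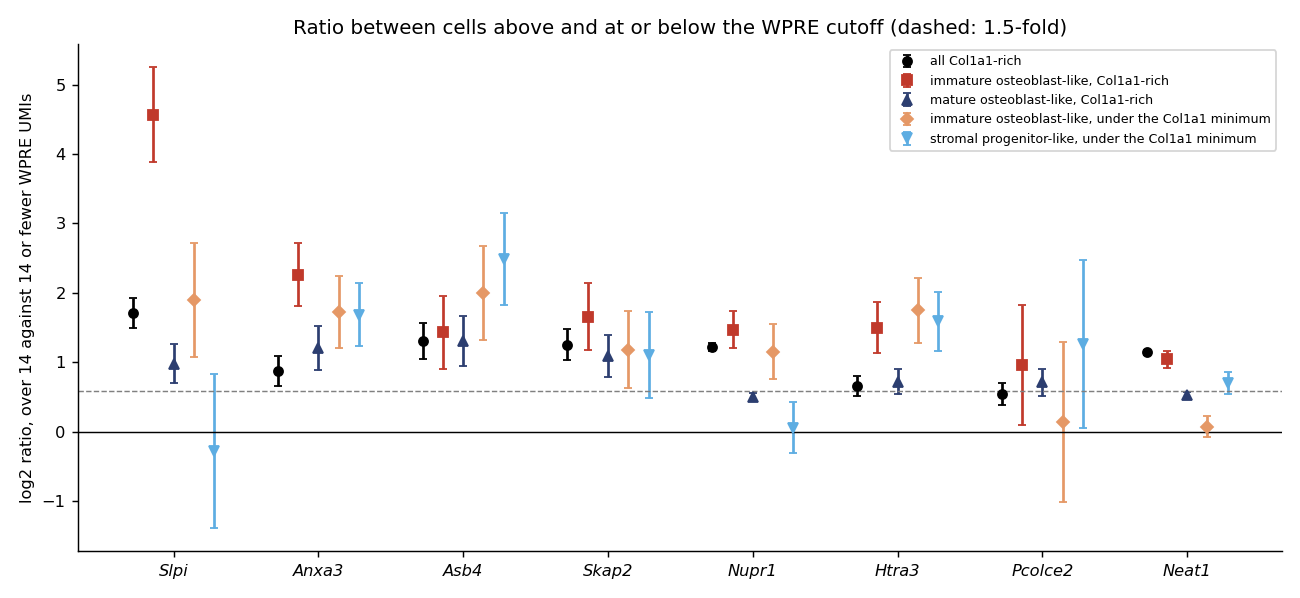
Log2 ratio of each gene between cells above and at or below the WPRE cutoff, with 95% counting intervals, in 5 sets of cells, 2 of them (orange, light blue) under the Col1a1 minimum and so outside the contrast that chose the genes. Anxa3, Asb4, Skap2 and Htra3 lie above 0 in all 5 sets, but the sets over the minimum share the cells that chose the genes. Slpi spans from 4.57 in immature osteoblast-like cells to -0.27 in stromal progenitor-like cells.

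Depth and Bglap were each split into ranges in a further description, which narrowed them but did not hold them alike. The deepest range, for example, ran from 19240.5 to 66055 UMIs. Cell class was not matched within a range, so the part of the differing makeup in the ratios below was not tested. The Col1a1-rich cells were split at the quartiles of depth. In the 3 deeper ranges all 24 ratios (8 genes, 3 ranges) were above 0, and 22 had intervals above 0. The share of all genes was not computed within ranges, so nothing is read from these counts or from those by Bglap. Both exceptions were Pcolce2, at 52.7 against 38.6 CPM in the second range and level at 119.9 against 118 CPM in the deepest range, which held 85 HC-derived cells. The lowest depth range held only 5 HC-derived cells, of which none had an Asb4 UMI. Nupr1 was lower in these cells, at 198 against 243 CPM, with an interval of the log2 ratio that held 0 (-1.30 to 0.71). A split at the quartiles of Bglap gave 3 ranges, since ties at 0 Bglap UMIs joined the lower 2, and again all 24 ratios were above 0, 22 with intervals above 0. The exceptions lay in the highest Bglap range (27 HC-derived and 269 other cells), where Slpi stood at 41.1 against 32.0 CPM and Asb4 at 19.1 against 15.99 CPM.

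Across the 16 marker-named classes of the tibia, the genes differed in the class where they were highest, although Slpi and Nupr1 shared HC-like cells. For Anxa3, Asb4 and Skap2 that class lay outside the chondrocyte and osteoblast lineage. For Htra3 it was periosteal or tendon fibroblast-like cells, whose name does not place them inside or outside that lineage. Slpi was highest in HC-like cells, at 302 CPM (285 to 321), followed by other leukocyte-like cells (184 CPM) and neutrophil or its precursor-like cells (105 CPM). Cycling and maturing chondrocyte-like cells held 97.7 and 79.4 CPM of Slpi, mature osteoblast-like cells 43.3 CPM and immature osteoblast-like cells 22.2 CPM. The levels of stromal progenitor-like, macrophage or osteoclast-like and fibroblast-like cells, 13.1, 12.96 and 11.5 CPM, did not differ beyond counting error, and B lineage-like cells were lowest at 2.70 CPM. One leukocyte-like cluster alone held 324 CPM, and in 4 of 6 alternative settings the other leukocyte-like class stood first.

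Anxa3 was highest in neutrophil or its precursor-like cells, at 342 CPM (332 to 351). HC-like cells (227 CPM, 211 to 243) and endothelial-like cells (214 CPM, 204 to 223) followed, with overlapping intervals, and immature and mature osteoblast-like cells stood at 45.1 and 33.9 CPM. Within the growth plate Anxa3 went from 5.59 CPM in cycling and 10.8 CPM in maturing chondrocyte-like cells to 18.8 CPM in pre-HC-like cells. Skap2 was highest in the myeloid classes, with other leukocyte-like cells at 132 CPM and macrophage or osteoclast-like cells at 121 CPM, whose intervals overlapped, and neutrophil or its precursor-like cells at 103 CPM. HC-like, immature osteoblast-like, B lineage-like and mature osteoblast-like cells, at 46.9, 41.0, 39.9 and 36.7 CPM, each overlapped their neighbour in that order.

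Asb4 was highest in endothelial-like cells, at 116 CPM (110 to 123), and all other classes held 33.8 CPM or less. The next places went to immature osteoblast-like (33.8 CPM), maturing chondrocyte-like (27.8 CPM), stromal progenitor-like (26.9 CPM) and mature osteoblast-like cells (25.5 CPM), with overlapping intervals between neighbours. Asb4 was near absent from blood cells, at 0.649 CPM in neutrophil or its precursor-like cells and 0.675 CPM in B lineage-like cells. Endothelial RNA was lower in HC-derived Col1a1-rich cells, where 10 endothelial markers summed to 18.5 CPM, than in the other cells, where they summed to 140 CPM, and Emcn, Stab2 and Flt4 had 0 UMIs in the HC-derived cells.

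Htra3 belonged to mesenchymal classes, with 144 CPM (132 to 157) in periosteal or tendon fibroblast-like cells and 102 CPM (95.8 to 109) in mature osteoblast-like cells. Chondrocyte, progenitor and immature osteoblast-like classes lay between 55.1 and 91.8 CPM, and blood cells other than macrophage or osteoclast-like cells lay under 4 CPM. Pcolce2 was a cartilage gene in this library, with 776 CPM (764 to 789) in maturing, 746 CPM (722 to 771) in cycling, 575 CPM in pre-HC-like, 386 CPM in resting and 364 CPM in HC-like cells. Mature osteoblast-like cells held 91.6 CPM and immature osteoblast-like cells 12.1 CPM. The summed level of 11 chondrocyte markers was lower in HC-derived Col1a1-rich cells (5466 CPM) than in the other cells (9176 CPM).

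Nupr1 was highest in HC-like cells, at 1573 CPM (1532 to 1614), followed by mature osteoblast-like cells at 1076 CPM (1055 to 1097). The next class, pre-HC-like cells, held 257 CPM, and immature osteoblast-like cells held 115 CPM. Neat1 was highest in mature osteoblast-like cells, at 2454 CPM (2422 to 2486), above resting chondrocyte-like cells at 1054 CPM (1006 to 1104). HC-like cells, at 582 CPM, did not differ in Neat1 beyond counting error from fibroblast-like (587 CPM) and stromal progenitor-like cells (568 CPM). Slpi, Anxa3 and Nupr1 were thus high in HC-like cells, at place 1 or 2 of 16 classes, while Asb4 and Neat1 were at places 9 and 11.

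**Figure D4:**
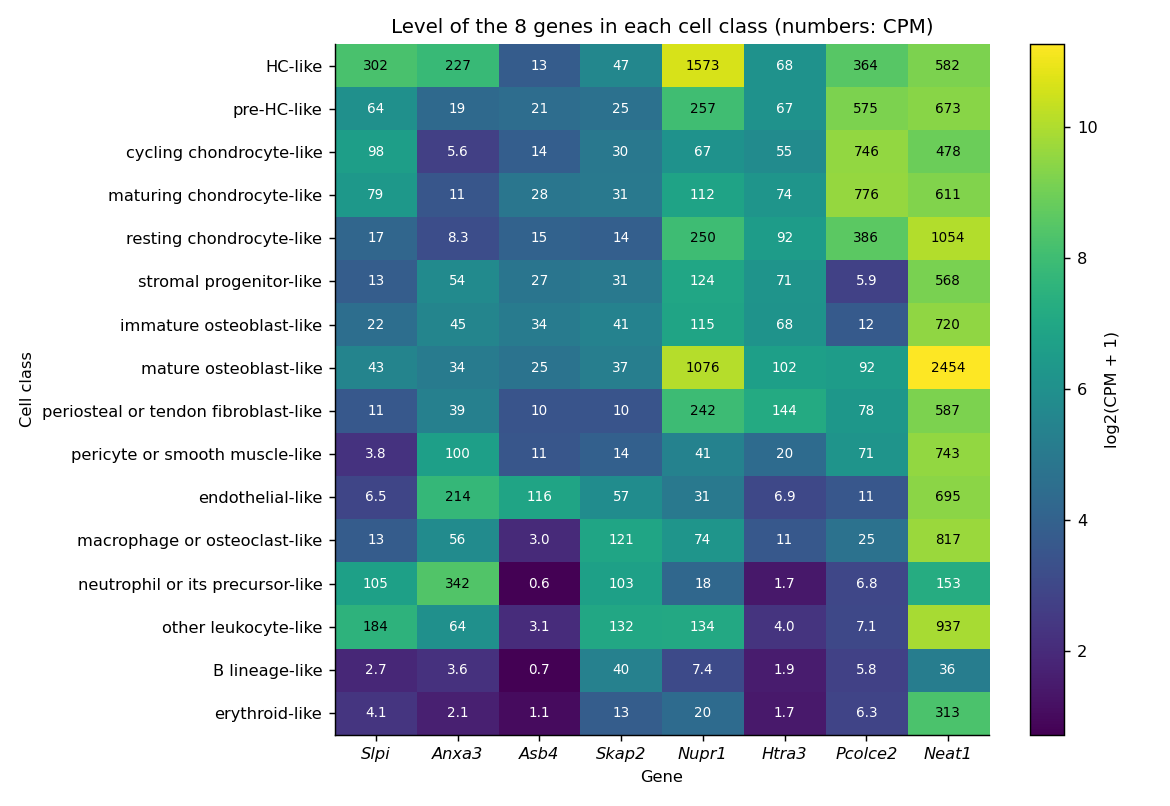
Level of the 8 genes (columns) in the 16 marker-named cell classes (rows), as numbers in CPM and as colour in log2(CPM + 1), to be read down each column because levels are not scaled per length between genes. HC-like cells are highest for Slpi and Nupr1 (302 and 1573 CPM), chondrocyte-like classes for Pcolce2, endothelial-like cells for Asb4 (116 CPM) and mature osteoblast-like cells for Neat1 (2454 CPM). For Anxa3, HC-like cells (227 CPM) come second to neutrophil or its precursor-like cells (342 CPM). For Slpi, other leukocyte-like cells (184 CPM) come second, and they stood first in some alternative settings given in the text.

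The marker lists of most other cell types summed lower in the HC-derived than in the other Col1a1-rich cells. A marker may also be expressed outside its cell type, so a sum need not be RNA of that type alone. Neutrophil markers summed to 1909 CPM and 3586 CPM, with 8 of 12 at least 1.5-fold lower, but within the mature class they were higher in the HC-derived cells, at 1247 against 639 CPM. Erythroid markers summed to 7345 and 11467 CPM, and B lineage markers to 152 and 436 CPM with 9 of 9 lower. Osteoclast markers were level over all Col1a1-rich cells, at 403 and 397 CPM. Within the immature class they were higher in the HC-derived cells, at 703 against 291 CPM, and in the mature class they stood at 329 against 314 CPM. The single genes of this list are not given within a class, so its sum is not taken as RNA of osteoclasts. Pre-hypertrophic chondrocyte markers were higher over all Col1a1-rich cells, at 763 against 520 CPM. Hypertrophic chondrocyte markers summed to 26059 against 14667 CPM, mostly from Spp1 and Ibsp, which osteoblasts also express. Of the 6 markers 3 were at least 1.5-fold higher, among them Ibsp and Col10a1 but not Spp1. The list summed to 42708 against 19414 CPM in the immature class and to 22339 against 22358 CPM in the mature class. Ibsp was higher in both, at 3989 against 1022 CPM and 10180 against 5438 CPM. Spp1 stood at 32471 against 15789 CPM in the immature and 10444 against 16226 CPM in the mature class. Col10a1, the defining gene of HCs, was low throughout, at 35.0 against 15.6 CPM over all Col1a1-rich cells, 14.7 against 17.6 CPM in the immature class and 13.2 against 14.5 CPM in the mature class. Stromal progenitor markers summed to 207 and 458 CPM and periosteal or tendon fibroblast markers to 1795 and 4160 CPM. The part of these lists in the ratios was not tested.

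The other genes of each family or pathway were taken from 8 lists. Of 48 measured genes on them beside the members, 3 were at least 1.5-fold higher and 8 at least 1.5-fold lower in HC-derived Col1a1-rich cells, with a median log2 ratio of -0.03, beside 4.15% and 15.5% of all genes. Both counts are near the shares of all genes, so nothing is read from them or from the lists they fall on. These lists share the cells of the contrast that chose the members. Their ratios are over all Col1a1-rich cells, whose 2 groups differed in makeup, and are not given within a class.

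The 3 higher genes were all on the list of the ATF4 stress response, which restores amino acid supply under stress and to which Nupr1 belongs. Psat1, an enzyme of serine synthesis, stood at 68.8 against 39.6 CPM (log2 ratio 0.78), the transcription factor gene Atf3 at 434 against 262 CPM (0.73) and Asns, asparagine synthetase, at 66.4 against 40.6 CPM (0.70). The other 7 measured genes of this list lay within 1.5-fold, and the median of the 10 was 0.37. Atf4 itself stood at 492 against 404 CPM (0.28, 0.21 to 0.36) and Ddit3 at 48.7 against 48.1 CPM.

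Of the 8 other measured annexins none was higher and 3 were lower. Anxa8 stood at 6.32 against 21.9 CPM (log2 ratio -1.64), Anxa4 at 13.6 against 26.2 CPM (-0.89) and Anxa11 at 15.6 against 27.0 CPM (-0.76), whereas the abundant Anxa5 was level at 464 against 466 CPM. On the list around Slpi 4 of the 5 other measured genes were lower and none was higher. The serine proteases that it and related inhibitors act on were lower by large ratios, with Elane at 3.16 against 47.9 CPM, Prtn3 at 9.49 against 78.4 CPM and Ctsg at 1.46 against 17.4 CPM. Elane, Prtn3 and Ctsg are granule genes of early neutrophils, and Elane and Prtn3 are themselves on the neutrophil marker list. That list also summed lower in the HC-derived cells over all Col1a1-rich cells, but higher within the mature class.

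None of the 8 other measured genes on the list around Neat1 passed 1.5-fold in either direction, and 7 of them had negative ratios. The median log2 ratio of all 8161 genes was also negative, at -0.11, so nothing is read from that count. Pspc1 stood at 20.4 against 29.1 CPM (log2 ratio -0.49). Malat1, listed as another nuclear long noncoding RNA, stood at 9252 against 11467 CPM (-0.31), against 1.14 for Neat1. Of the 4 other procollagen trimming genes none passed 1.5-fold. Bmp1, the protease that Pcolce proteins enhance, stood at 609 against 436 CPM (0.48, 0.41 to 0.55), Adamts14 at 19.9 against 15.7 CPM (0.33) and Pcolce at 1123 against 1003 CPM (0.16).

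Htra1 and Htra2, relatives of Htra3, stood at 168 against 166 CPM and at 24.8 against 30.1 CPM. Among 6 other measured genes of ASB ligases 1 was lower, Asb6 (6.57 against 10.4 CPM, log2 ratio -0.59), while the scaffold gene Cul5 was level at 42.3 against 41.3 CPM. Asb8 stood at 8.76 against 11.8 CPM (-0.39) and Rnf7, the ring finger partner of Cul5, at 134 against 117 CPM (0.19). Among 5 measured partners of Skap2 none passed 1.5-fold, with Fyn at 125 against 90.3 CPM (log2 ratio 0.47) and Src at 15.1 against 12.6 CPM (0.24).

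**Figure D5:**
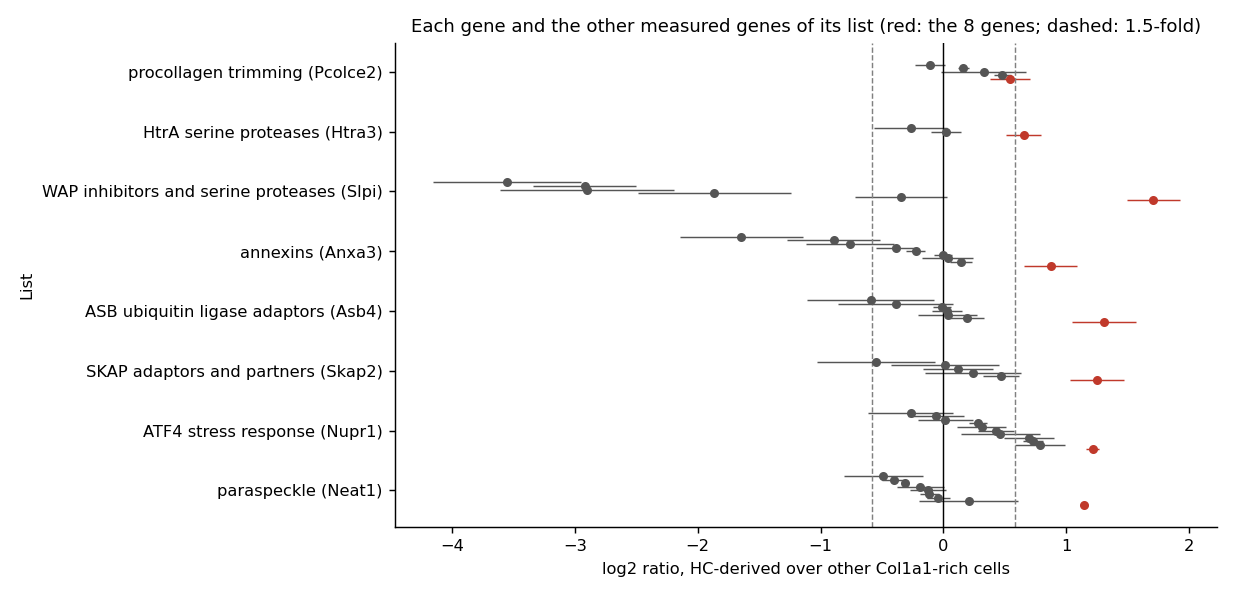
Log2 ratio between HC-derived and other Col1a1-rich cells, with 95% counting intervals, for the 8 genes (red) and the other measured genes of their lists (grey), with 1.5-fold as dashed lines. Each of the 8 genes lies at the upper end of its own list, but they were chosen for a high ratio in this contrast, so nothing is read from that place. Of the grey points 3, all on the ATF4 list, lie above the upper dashed line.

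The genes most alike in pattern were found by Pearson's r of log2(CPM + 1) over the 25 named clusters among 7075 genes with at least 50 CPM in a cluster. All clusters share 1 library, so these values describe it. Htra3 was most like Lum (0.968), Scarf2 (0.968) and Colec12 (0.965). Pcolce2 was most like 3110079O15Rik (0.978), Zfp385b (0.976) and Mia (0.970), the first of which reached 10610 CPM in pre-HC-like cells. Asb4 was most like Adarb1 (0.955), Ctnnb1 (0.930) and Sema6a (0.930), all highest in an endothelial-like cluster.

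The patterns of the other genes had looser matches. Skap2 was most like Ostf1 (0.873), Arpc2 (0.868) and Nrros (0.857), and Anxa3 like Itm2b (0.873), Alas1 (0.851) and Tcn2 (0.829). Neat1 was most like Gm17056 (0.864), Ier3 (0.859) and Dusp1 (0.852), of which Ier3 and Dusp1 are early response genes. Nupr1 was most like Sra1 (0.847), Fabp3 (0.841) and Gabarap (0.834), and Slpi like F5 (0.816), Prdx5 (0.811) and Slc16a3 (0.797). Among the 8 genes themselves the closest pair was Nupr1 and Htra3 (0.767), followed by Htra3 and Pcolce2 (0.697), and the lowest value was that of Skap2 and Htra3 (-0.454).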

How the data were processed

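Counts of UMIs per gene and barcode were deposited by the authors without normalization, made with Cell Ranger 3.1.0 on mm10 with tdTomato and WPRE sequences added. The matrix holds 14181 barcodes with 500 to 85279 UMIs (median 8235). WPRE and tdTomato counts were joined by barcode from the matrix of 98 exogenous sequences. No source used here gives the annotation release behind the counts. Coordinates come from GENCODE M21, and promoters from RefSeq (GRCm38.p6).

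Barcodes were kept from 1600 genes upwards, where mitochondrial UMIs were 10% or less and ribosomal protein UMIs 50% or less. They were clustered with Python 3.11.15 and scanpy 1.11.5 (2000 variable genes without the members, 30 principal components, 20 neighbours, Leiden resolution 1, seed 1). The 30 clusters were named from 24 marker lists by a rule set after the clusters had been seen, so names may differ from the study's. A cluster needed 3 markers at 10 CPM and 50 cells, and 5 clusters with 264 cells stayed unnamed. Scrublet marked 588 barcodes (4.15%), which were kept.

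Levels are summed UMIs per 1000000 UMIs (CPM) with exact Poisson 95% intervals, shares carry exact Clopper-Pearson intervals in the tables, and log2 ratios have 1 CPM added and approximate counting intervals. Shares were compared after thinning to 5000 UMIs, which left out 36 other cells. The scripts were tested on simulated counts. Besides the members, genes named are those of each list with the largest ratio and those most alike in pattern, and a few (Bglap, Ibsp, Ifitm5, Spp1, Col10a1, S100a8, Vcam1, Atf4, Ddit3, Anxa5, Cul5, Gm16126 and 3 endothelial markers) were chosen after their values were seen. Some genes that the rule names are not reported here. The members and lists were chosen with earlier results of these data known. The alternatives are given in the closing section. Values without leukocyte-marked cells and doublet calls, or without the cell with most UMIs of a gene in each group, were added after the data had been seen. The P56 sample was not analysed here.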

Additional observations from a re-analysis of the deposited data

How the results depend on the processing

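Over 24 alternative settings, 2 of them added after seeing the data, all 192 member ratios stayed above 0, and between 6 and 8 genes were at least 1.5-fold higher. The settings re-use the contrast that chose the genes, and the share of all genes was not computed for most of them. Nothing is therefore read from the signs or the count. Outside the counting interval of the main value lay 65 of the 192 ratios and 16 of the 24 medians. The median log2 ratio of 1.18 was 1.31 with per-cell means, 1.31 with cells thinned to 5000 UMIs and 1.31 against cells with 0 WPRE UMIs, and 1.24 as the mean within immature and mature cells. It was 1.13 with no filter on cells, 1.11 above 10 WPRE UMIs per 10000, 1.11 in osteoblast-like clusters only, 1.09 and 1.07 at Col1a1 minimums of 10 and 50 per 10000, 1.02 at 5% mitochondrial UMIs, 1.01 with 10 CPM added, 1.003 within Bglap ranges and 1.001 above 29 WPRE UMIs. With tdTomato in place of WPRE it was 0.79. Within depth ranges it was 0.79, and 1.05 without the lowest range, whose 5 HC-derived cells also set the lowest ratio of Asb4 (0.08, and 1.72 without that range). The share of all genes at least 1.5-fold higher was 7.57% after thinning, and 1.09% of genes were at least 2-fold higher. The class with the highest level was the same in 39 of 48 cases (8 genes, 6 alternative settings); the exceptions were Slpi in 4, Pcolce2 in 3, and Asb4 and Skap2 in 1 each. In the Asb4 case, at 5% mitochondrial UMIs, no cluster was named endothelial-like. The causes of the other changes were not tested. No paired analysis was possible because there is 1 library and 1 group. Depth limits Pcolce2 in immature and progenitor cells, which rests on 8 to 39 UMIs.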

Other observations

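In pre-HC-like cells, 15 of 596 cells lay above the WPRE cutoff. They held 139 CPM of Anxa3 (95% counting interval 110 to 172) against 14.7 CPM (12.9 to 16.7) in the 581 cells at or below it, 1011 CPM of Nupr1 (931 to 1097) against 231 CPM (224 to 239), and 227 CPM of Slpi (190 to 269) against 58.5 CPM (54.9 to 62.3). Of the 15 cells, 1 held 62 of their 131 Slpi UMIs, and without the top cell of each group Slpi stood at 130.2 against 57.2 CPM. Neat1 was lower above the cutoff, at 569.8 against 676 CPM (log2 ratio -0.25, -0.40 to -0.09). For Asb4 the values were 19.05 and 21.2 CPM, with overlapping intervals. The median depths were 37675 and 28244 UMIs.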
